A study of Danio rerio with 15 samples.

Results

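Transcripts of zebrafish larvae (Danio rerio, wild-type strain AB) given 50 nM TCPM in their water were compared with those of larvae given the vehicle alone, dimethyl sulfoxide (DMSO) at 0.01% by volume. TCPM is tris(4-chlorophenyl)methane, a carbon atom with a hydrogen and a chlorinated phenyl ring on each of its other bonds. The comparison was described over all genes whose base mean, the average over libraries of read counts scaled by size factors, was 10 or more. This rule kept 22953 of 36351 genes in the authors' deposited table. It left out 9165 genes with a lower base mean and 4233 genes with no read. Exposure ran from 24 to 100 hours after fertilization, stated as 3 days, and each sample was a pool of 8 to 10 whole larvae. There were 5 samples with TCPM and 5 with DMSO, of 15 in the series. The other 5 samples had received 50 nM TCPMOH, tris(4-chlorophenyl)methanol, and their values are given beside those of TCPM where a table of them, made against the same DMSO libraries, bears on a gene. Randomized embryos of 20 breeding pairs supplied the pools, in 3 experimental replicates, and the sources used here do not say which pool belongs to which replicate. The p-values below measure the spread between pools and take no account of a replicate that pools may share.

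A larva at this stage swims, sees and has a working liver, pancreas and gut, so its RNA is a mixture of many tissues. In zebrafish nearly every cell has a clock that light can set directly. Light switches on per2, which encodes a clock repressor, together with genes for photolyases, the enzymes that repair DNA damaged by ultraviolet light. The aryl hydrocarbon receptor is a transcription factor that is activated by planar aromatic ligands such as dioxins and switches on the Cyp1 monooxygenases. Immediate-early genes such as fosab, a homologue of Fos, are transcribed within minutes of a signal at the cell surface, and npas4a is their counterpart for electrical activity in neurons. The pigment epithelium behind the retina makes melanin, as skin melanophores do, and regenerates the light-absorbing form of vitamin A in the visual cycle.

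The deposited table holds 1 row per gene and no value per library. Genes with a single read showed that 4 TCPM and 4 DMSO libraries entered the fit. The sources used here do not say which sample of each group is outside it. The TCPM libraries held an estimated 19 to 23.5 M reads assigned to genes, and the DMSO libraries 18.2 to 25.9 M. Each gene's mean in the TCPM libraries and in the DMSO libraries, in normalised counts, its fold change and its coefficient of variation (CV) between libraries of a group were recovered from the base mean, the fold change and the standard error in the table. Without values per library it could not be seen whether the groups overlap. The recovered CV is the spread beyond counting that the authors' fit used for a gene, not one computed from its libraries. Its median was 9.60% over all genes. It was 8.42% where the base mean was 100 or more, for which a change of 1.25-fold was the median smallest that could reach the threshold. Of 51 marker genes of 17 tissues fixed for a whole larva, all 51 had a base mean of 10 or more. Of these 6 were called, against 1.89% of all genes tested.

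Few genes were called between TCPM and DMSO, and most of those differed by less than 1.5-fold. In the authors' deposited table the DESeq2 Wald test, two-sided, called 419 of 22223 genes (1.89%) at a Benjamini-Hochberg adjusted p under 0.05. Of these 282 were higher with TCPM (1.27% of the genes tested) and 137 were lower (0.616%). Before adjustment 1945 of 22951 genes (8.47%) had a p under 0.05, 1123 of them higher and 822 lower. The median fold change of the called genes was 1.38-fold in each direction. At least 1.5-fold separated the groups in 137 called genes, 92 higher and 45 lower, and at least 2-fold in 24 higher and 11 lower. Over all genes described, 50.1% had a positive fold change.

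**Figure D1:**
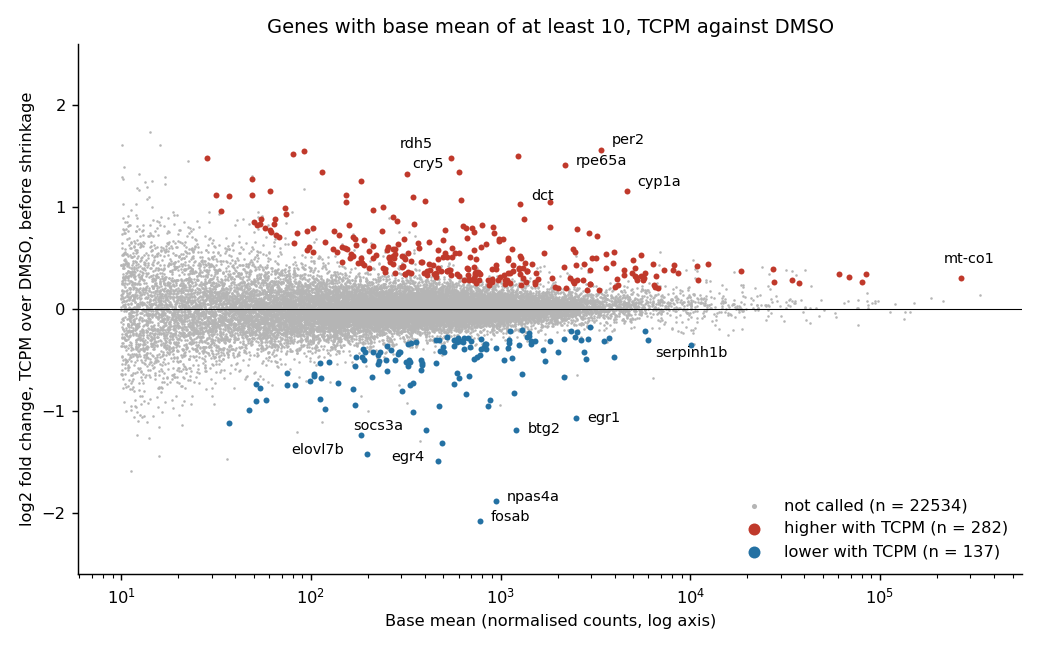
Each point is a gene, with its base mean in normalised counts on a log axis and its log2 fold change, TCPM over DMSO, before shrinkage. The 282 red genes were called higher with TCPM and the 137 blue genes lower, and the labelled genes are described in the text.

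The share of genes called grew with their level up to a base mean of 10000. In the lowest range, base means of 10 to 30, 1 of 1794 tested genes was called, and the median smallest fold that could have been called was 2.38. Between 300 and 1000 this was 1.24-fold, and 152 of 7177 genes (2.12%) were called. Above 10000 it was 1.21-fold, and 14 of 235 genes (5.96%) were called, 13 higher and 1 lower. Of these 14, 9 were mitochondrially encoded, and of the other 226 genes above 10000 only 5 (2.21%) were called, against 3.47% between 1000 and 10000. A gene of low level that is not called may therefore have changed by as much as a gene of high level that is.

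**Figure D2:**
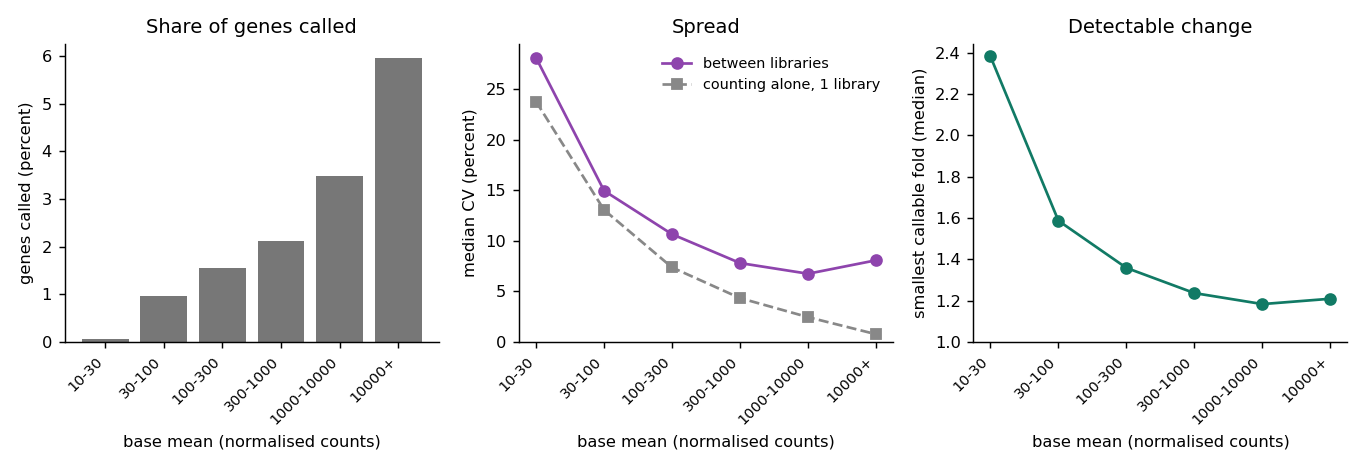
Left, percent of tested genes called in ranges of base mean; middle, median CV between libraries beyond counting, with the CV that counting alone gives in 1 library; right, median smallest fold change that could have been called. The smallest callable fold falls from 2.38 in the lowest range to 1.18 between 1000 and 10000.

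Genes were grouped in 46 lists of pathways and tissues, which hold 144 of the 419 called genes. The light-induced, melanin, visual cycle, intestine and mitochondrially encoded lists held 9 to 12 called genes each, all higher with TCPM. The immediate-early factors and other early genes held 9 and 14, all lower. Lists with 0 called genes included those of the proteasome, ribosomal proteins, lens, islets, skeletal muscle sarcomeres, neurons, ionocytes and leukocytes. Counts of called members below stand beside the 1.27% of all tested genes that were called higher and the 0.616% called lower. Those with a p under 0.05 before adjustment stand beside 4.89% higher and 3.58% lower. The lists were chosen with earlier results of these data known, so a share above these is a description and not a test. Single calls in the lists of the antioxidant genes (2.86% of members), the cell cycle (1.37%), matrix (1.16%), oxidative phosphorylation (1.08%) and glucose (1.67% in each direction) rest on 1 gene each and are read as values of that gene, not of the list. The same holds for liver plasma proteins (2.04%), amino acid catabolism (2.22%), iridophores and xanthophores (3.1%), erythroid genes (3.1%) and the heart (5%). When the Wald statistics were divided by their robust SD, 86 of the 419 calls were lost. Among the genes described below these were neil1, nfil3-6, per1a, rrm2b, plk2b, sult6b1, ugt5a4, hbae1.1, ccnd1, chac1, scarb1, ldlra, srebf1, myf6 and evplb. With that setting the called members numbered 3 in place of 5 in conjugation and efflux, 1 in place of 2 in endoplasmic reticulum stress, cholesterol and fatty acid synthesis, and 0 in place of 1 in the cell cycle, iridophore and xanthophore, and erythroid lists. The median log2 fold change over all 22953 genes was 0.00, and medians of lists below are on the same deposited, shrunken scale unless stated.

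**Figure D3:**
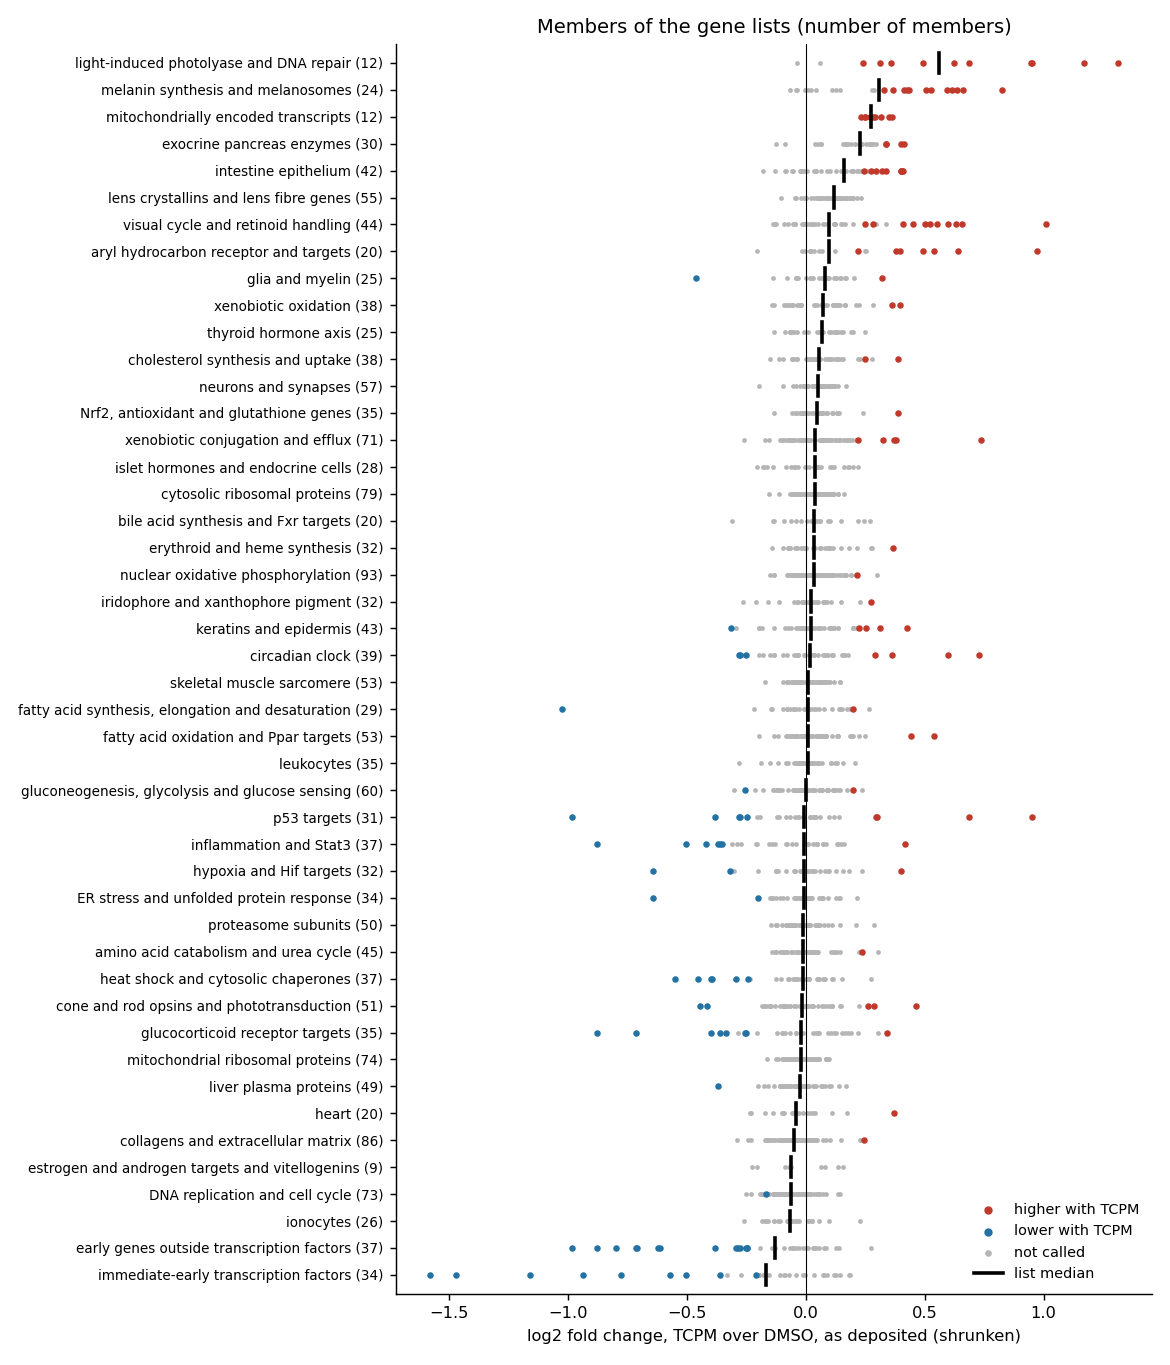
Members of the 46 gene lists by log2 fold change, TCPM over DMSO, as deposited. Red and blue points are members called higher and lower with TCPM, grey points are members not called, bars mark list medians, and the number of members is in parentheses.

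Most genes of the light-induced list rose with TCPM. Of 12 genes with a deposited adjusted p, 10 rose and 0 fell, against 1.27% higher and 0.616% lower among all genes tested, with a median log2 fold change of 0.56. Transcripts of per2 (Entrez gene 140633) averaged 5044 normalised counts with TCPM and 1709 with DMSO, a 2.95-fold difference (95% interval 2.6 to 3.35; CV 8.99%, n = 4 libraries each). The photolyase gene cry5 averaged 867 with TCPM and 341 with DMSO, 2.54-fold higher (2.27 to 2.84). Another gene of the cryptochrome and photolyase family, cry-dash, averaged 1206 with TCPM and 748 with DMSO, 1.61-fold higher. The adjusted p in the authors' deposited table was 4.76e-58 for per2, 2.38e-55 for cry5 and 2.44e-19 for cry-dash.

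The same list holds xpc, ddb2 and lonrf1, which rose as well. Transcripts of xpc, whose product finds distorted DNA for nucleotide excision repair, averaged 843 with TCPM and 401 with DMSO, 2.1-fold higher (1.89 to 2.33). Those of ddb2, whose product binds ultraviolet damage, averaged 833 with TCPM and 480.4 with DMSO, 1.73-fold higher (1.54 to 1.95). The RING finger gene lonrf1 averaged 2451 with TCPM and 1181 with DMSO, 2.07-fold higher (1.88 to 2.29). In the authors' deposited table the adjusted p was 3.13e-40 for xpc, 1.84e-17 for ddb2 and 4.76e-44 for lonrf1. Named after their values were seen, 3 more genes rose. The glycosylase gene neil1 was 1.32-fold higher and the list's clock output factor gene tefa 1.45-fold higher. Outside the list, ercc6, which acts in repair coupled to transcription, was 1.51-fold higher (adjusted p = 2.61e-10 by the authors' deposited table).

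In the clock list proper the members moved both ways. Of 39 genes 4 rose and 3 fell (17.9% called, against 1.89% of all genes tested), with a median log2 fold change of 0.02. The repressor gene cry1ba averaged 5015 with TCPM and 3968 with DMSO (1.26-fold higher), and the activator gene npas2 averaged 353 with TCPM and 189 with DMSO (1.87-fold higher, 1.62 to 2.16). The transcriptional repressor gene nfil3-6 was 1.75-fold higher with a wide interval of 1.26 to 2.42 and a CV of 23.2%, against a median of 9.60% over all genes. Those that fell included nr1d2a, a Rev-erb repressor gene, at 3124 with TCPM and 3893 with DMSO (1.25-fold lower, 1.12 to 1.39). The clock output gene dbpb averaged 2368 with TCPM and 2922 with DMSO (1.23-fold lower, 1.12 to 1.35), and per1a, named after its values were seen, was the third. The sources used here do not give the hour of the day at which each pool was taken, and its part in these results was not tested.

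Several genes of vitamin A handling rose, rdh5 among the 12 highest of all called genes. Of 44 genes of the visual cycle and retinoid list 11 rose and 0 fell, with a median log2 fold change of 0.10. Transcripts of rdh5, whose product oxidises 11-cis-retinol in the pigment epithelium, averaged 804 with TCPM and 289 with DMSO, 2.78-fold higher (2.28 to 3.4; CV 13.5%). The retinal G protein-coupled receptor genes rgra and rgrb averaged 3180 and 820.5 with TCPM against 1848 and 507 with DMSO, 1.72-fold (1.49 to 1.99) and 1.62-fold (1.44 to 1.83) higher. Transcripts of stra6, the receptor that takes up retinol from its plasma carrier, averaged 914 with TCPM and 540.4 with DMSO, 1.69-fold higher (1.51 to 1.9). The retinoid carrier gene rbp3 averaged 4699 with TCPM and 3198 with DMSO, 1.47-fold higher. The authors' deposited table gives adjusted p values of 1.1e-20 for rdh5, 3.15e-16 for stra6, 1.06e-12 for rbp3, 1.86e-12 for rgrb and 1.01e-10 for rgra.

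The isomerase gene rpe65a, named after its values were seen, had a higher recovered CV than most. It averaged 3179 with TCPM and 1198 with DMSO, 2.65-fold higher with an interval of 1.84 to 3.82, and its CV between libraries was 26.2% (adjusted p = 3.29e-05 by the authors' deposited table). Its deposited log2 fold change, which is shrunken, was 0.55. The fold, interval and CV of rpe65a rest on which solution of the prior was taken, as described with the processing. The default solution gives a smaller fold and a narrower interval. Also named after their values were seen, the retinaldehyde carrier gene rlbp1b was 1.68-fold higher (1.38 to 2.03) and lratb.2, a lecithin retinol acyltransferase gene outside the list, 1.97-fold higher (1.6 to 2.42). Chosen in the same way, the lactate transporter gene slc16a8, which in mammals marks the pigment epithelium, averaged 206 with TCPM and 99.3 with DMSO, 2.08-fold higher (1.68 to 2.57). In whole larvae, more cells of a type and more RNA per cell cannot be told apart.

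The called photoreceptor genes did not show one direction. Of 51 opsin and phototransduction genes 3 rose and 2 fell, with a median log2 fold change of -0.01. Before adjustment 4 were higher and 9 lower, and 31 fold changes were negative. The cone arrestin genes arr3a (12135 with TCPM and 9948 with DMSO) and arr3b (5654 with TCPM and 4530 with DMSO) were 1.22-fold and 1.25-fold higher, and the cone phosphodiesterase gene pde6ha 1.5-fold higher. The rod phosphodiesterase gene pde6ga, at 61.9 with TCPM and 103.8 with DMSO, was 1.68-fold lower (1.31 to 2.13), and nr2e3, a nuclear receptor gene of rod development, at 274 with TCPM and 391 with DMSO, was 1.43-fold lower (1.24 to 1.65). Rhodopsin, rho, averaged 29371 with TCPM and 27902 with DMSO, and the ultraviolet cone opsin opn1sw1 averaged 29405 with TCPM and 30889 with DMSO. Neither passed the test (adjusted p = 0.875 and 0.897 by the authors' deposited table), with 95% intervals for the ratio of TCPM to DMSO of 0.96 to 1.15 for rho and 0.87 to 1.05 for opn1sw1. The opsin genes opn1mw1 and opn1sw2, named after their values were seen, did not pass either (adjusted p = 0.32 and 0.256 by the authors' deposited table). Their intervals of the ratio lay below 1, at 0.77 to 0.97 for opn1mw1 and 0.8 to 0.97 for opn1sw2.

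Several melanin genes rose with TCPM. Of 24 genes of melanin synthesis and melanosomes 12 rose and 0 fell, with a median log2 fold change of 0.31. The pigment enzyme gene dct averaged 1700 with TCPM and 831 with DMSO, 2.05-fold higher (1.77 to 2.37). Tyrosinase, tyr, the enzyme that starts melanin synthesis, averaged 1207 with TCPM and 759.6 with DMSO, 1.59-fold higher (1.35 to 1.87). The tyrosinase-related genes tyrp1a and tyrp1b averaged 807 and 3681 with TCPM against 458 and 2198 with DMSO, 1.76-fold and 1.67-fold higher. The melanosome fibre genes pmela and pmelb were 1.64-fold (1.44 to 1.88) and 1.78-fold (1.54 to 2.06) higher, and the melanosome transporter gene oca2 1.56-fold higher (1.36 to 1.8). The authors' deposited table gives adjusted p values of 2.16e-18 for dct, 9.5e-06 for tyr, 9.35e-14 for tyrp1b, 1.61e-08 for tyrp1a, 1.01e-10 for pmela, 1.36e-11 for pmelb and 1.42e-07 for oca2.

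The gene for the melanocyte transcription factor mitfa, named after its values were seen, did not pass. It averaged 51.6 with TCPM and 56.4 with DMSO, with an interval for the ratio of TCPM to DMSO of 0.7 to 1.2. At that level the data could not show a small change. Markers of iridophores, the silvery pigment cells, were near equal in both groups: pnp4a, ltk and alx4a had deposited log2 fold changes of 0.07, 0.03 and 0.01. In the iridophore and xanthophore list 1 of 32 genes rose, scarb1, a carotenoid uptake gene (1.26-fold higher). The 3 melanophore markers tyr, dct and pmela all rose, and whether skin melanophores or the pigment epithelium of the eye carried the rise cannot be told apart.

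Several genes of the aryl hydrocarbon receptor pathway rose. Of 20 genes 7 rose and 0 fell, with a median log2 fold change of 0.10. Transcripts of cyp1a (Entrez gene 140634), the classical marker of the receptor's activity, averaged 6377 with TCPM, 3504 with TCPMOH and 2863 with DMSO. That is 2.23-fold higher with TCPM than with DMSO (1.96 to 2.53; CV 9.06%). The other Cyp1 genes cyp1b1 and cyp1c1 averaged 895 and 1681 with TCPM against 516 and 1235 with DMSO, 1.74-fold (1.5 to 2) and 1.36-fold (1.23 to 1.5) higher. The repressor of the receptor, ahrra, averaged 130.1 with TCPM and 75.1 with DMSO, 1.73-fold higher (1.38 to 2.18). The forkhead gene foxq1a averaged 1269 with TCPM, 744 with TCPMOH and 790.2 with DMSO, 1.61-fold higher with TCPM (1.38 to 1.87). In the authors' deposited table the adjusted p was 1.88e-31 for cyp1a, 3.71e-11 for cyp1b1, 4.78e-07 for cyp1c1, 0.000429 for ahrra and 3.16e-07 for foxq1a.

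Other genes of xenobiotic handling rose in small numbers. Of 38 genes of xenobiotic oxidation 2 rose (5.26%) and 0 fell, with 9 higher and 0 lower before adjustment. The 2 that rose were cyp3a65, a monooxygenase gene of gut and liver, at 12421 with TCPM and 9282 with DMSO (1.34-fold higher), and cyp2x8 at 176 with TCPM and 116 with DMSO (1.52-fold higher). Of 69 genes of conjugation and efflux 5 rose (7.25%) and 0 fell, and 2 of the 5, sult6b1 and ugt5a4, lost their call with the robust SD. The efflux pump gene abcg2a, a homologue of the human breast cancer resistance protein, averaged 1730 with TCPM, 2201 with TCPMOH and 940.3 with DMSO, 1.84-fold higher with TCPM (1.62 to 2.09; adjusted p = 1.57e-17 by the authors' deposited table). The glutathione transferase genes gsto2 and gsta.1 were 1.35-fold and 1.3-fold higher. In the antioxidant list 1 of 35 genes rose, nfe2l2b, which encodes an Nrf2 paralogue, at 365 with TCPM and 260.2 with DMSO (1.4-fold higher). The ferritin gene fth1a, an Nrf2 target in mammals, averaged 11844 with TCPM and 10745 with DMSO and did not pass (adjusted p = 0.365 by the authors' deposited table).

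Several immediate-early genes fell with TCPM, and fosab and npas4a had the most negative deposited fold changes of all called genes. Of 34 immediate-early transcription factor genes 9 fell and 0 rose, with a median log2 fold change of -0.17; before adjustment 17 were lower and 1 higher. Transcripts of fosab (Entrez gene 394198) averaged 299 with TCPM and 1260 with DMSO, 4.22-fold lower (3.58 to 4.97; CV 11%). The activity-induced npas4a averaged 401 with TCPM and 1483 with DMSO, 3.7-fold lower (3.16 to 4.32). The zinc finger genes egr4 and egr1 averaged 246 and 1616 with TCPM against 693 and 3398 with DMSO, 2.81-fold (2.4 to 3.29) and 2.1-fold (1.88 to 2.35) lower. The AP-1 subunit gene junbb averaged 586 with TCPM and 1133 with DMSO, 1.93-fold lower, and the orphan receptor gene nr4a1 averaged 1011 with TCPM and 1577 with DMSO, 1.56-fold lower. Adjusted p values in the authors' deposited table were 2.67e-61 for fosab, 1.59e-56 for npas4a, 2.06e-34 for egr4, 1.89e-35 for egr1, 1.85e-17 for junbb and 1.16e-14 for nr4a1.

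Several early genes that do not encode transcription factors fell as well. Of 37 such genes 14 fell and 0 rose, with a median log2 fold change of -0.13. The antiproliferative gene btg2 averaged 741 with TCPM and 1684 with DMSO, 2.27-fold lower (1.99 to 2.6). The cytokine signalling inhibitor gene socs3a averaged 246 with TCPM and 560.3 with DMSO, 2.27-fold lower (1.91 to 2.71). The secreted matrix factor gene cyr61 averaged 612 with TCPM and 1138 with DMSO (1.86-fold lower), the MAP kinase phosphatase gene dusp1 844 with TCPM and 1499 with DMSO (1.78-fold lower), and ier2b 229 with TCPM and 461 with DMSO (2.01-fold lower). The G protein regulator gene rgs2 averaged 79.5 with TCPM and 157 with DMSO (1.97-fold lower, 1.58 to 2.47). The authors' deposited table gives adjusted p values of 2.99e-30 for btg2, 6.46e-29 for cyr61, 2.86e-18 for dusp1, 2.71e-17 for socs3a, 4.03e-10 for ier2b and 7.06e-07 for rgs2.

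The same early genes appear in other lists, and the counts of those lists overlap with these. Of 35 inflammation and Stat3 genes 6 fell and 1 rose, the falls being socs3a, cebpb, ptgs2a, hamp, cebpd and nfkbiaa and the rise cish, a Stat5 target (1.49-fold higher). Of 35 glucocorticoid receptor targets 7 fell and 1 rose. Before adjustment 9 of these targets were lower and 4 higher, and their median log2 fold change was -0.02. The immunophilin gene fkbp5, a sensitive target of that receptor, averaged 3308 with TCPM and 4573 with DMSO (1.38-fold lower, 1.22 to 1.56), and the mitochondrial carrier gene slc25a25a 729 with TCPM and 955 with DMSO (1.31-fold lower). The member that rose was foxo1a, a forkhead factor gene of insulin signalling, at 761 with TCPM and 579.6 with DMSO (1.31-fold higher). Of 31 p53 targets, 2 of which are also in the light-induced list, 4 rose (12.9%) and 5 fell (16.1%), the rises being xpc, ddb2, sesn1 and rrm2b and the falls btg2, gadd45ba, cdkn1a, cdkn1d and plk2b. Of these rrm2b, cdkn1a and plk2b were named after their values were seen.

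Some chaperone genes fell, by less than 1.6-fold. Of 37 heat shock and cytosolic chaperone genes 6 fell and 0 rose, and the list's median was -0.01. The J-domain cochaperone gene dnajb1b averaged 465 with TCPM, 773 with TCPMOH and 718 with DMSO, 1.54-fold lower with TCPM (1.38 to 1.72). The inducible Hsp70 gene hsp70l averaged 302 with TCPM, 526 with TCPMOH and 456 with DMSO, 1.51-fold lower with TCPM (1.28 to 1.79). The collagen chaperone gene serpinh1b averaged 5374 with TCPM, 9794 with TCPMOH and 6655 with DMSO, 1.24-fold lower with TCPM (1.16 to 1.32; CV 4.49%). The adjusted p for TCPM was 7.79e-12 for dnajb1b, 0.000186 for hsp70l and 3.53e-08 for serpinh1b in the authors' deposited table. Near-identical copies of hsp70 make single genes of that family uncertain, since how reads that match several genes were counted is not given, and the same holds for the trypsin, chitinase, glutathione transferase and globin families.

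Related stress and growth lists held few calls. Of 34 genes of endoplasmic reticulum stress 2 fell, ddit4, an inhibitor of the growth kinase mTOR (472 with TCPM and 841 with DMSO, 1.78-fold lower), and chac1 (1.16-fold lower). In the hypoxia list, which also holds ddit4, 1 of 32 genes rose (3.1%) and 2 fell (6.25%). The rise was that of the carbonic anhydrase gene ca9 (1.51-fold higher). Of 73 genes of replication and the cell cycle 1 fell, the cyclin gene ccnd1, at 2768 with TCPM and 3134 with DMSO (1.13-fold lower, 1.05 to 1.22). In that list 57 of 73 fold changes were negative, with a median of -0.06, and before adjustment 0 were higher and 7 lower. Of 86 collagen and matrix genes 1 rose, the crosslinking enzyme gene loxl2a (1.2-fold higher), and 62 were negative (median -0.05). Before adjustment 2 of the matrix genes were higher and 10 lower. The proteasome list of 50 genes had 0 called and a median of -0.01.

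Most mitochondrially encoded transcripts rose with TCPM. Of 12 in the list 10 rose, 0 fell and all 12 had a p under 0.05 before adjustment, with a median log2 fold change of 0.27. The oxidase subunit mt-co1 averaged 297218 with TCPM and 240228 with DMSO, 1.24-fold higher (1.14 to 1.34). The complex I subunits mt-nd2 and mt-nd4 averaged 31092 and 37699 with TCPM against 23683 and 30872 with DMSO, 1.31-fold and 1.22-fold higher. COX3, which the list's pattern did not match and which was named after its values were seen, averaged 94109 with TCPM and 74166 with DMSO, 1.27-fold higher. The 2 members that were not called, mt-nd6 and mt-atp8, were named after their values were seen. They were 1.3-fold (1.09 to 1.55) and 1.47-fold (1.07 to 2.03) higher, with CVs of 12.2% and 23.2%. With COX3 these transcripts were 3.64% of summed normalised counts with TCPM and 3.02% with DMSO. The lists that the nucleus encodes held fewer calls: of 93 oxidative phosphorylation genes 1 rose, the succinate dehydrogenase subunit gene sdha (4495 with TCPM and 3829 with DMSO, 1.17-fold higher), with a median of 0.03. In that list 66 of 93 fold changes were positive, and before adjustment 7 were higher and 0 lower. Of 79 cytosolic and 74 mitochondrial ribosomal protein genes none was called, and 0 had a p under 0.05 before adjustment. Positive fold changes numbered 62 in the cytosolic list and 28 in the mitochondrial list.

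Digestive organs were represented by pancreas, gut and liver lists. Of 28 exocrine pancreas enzyme genes with an adjusted p 4 rose and 0 fell. Over all 30 members described, 18 were higher before adjustment. Their median log2 fold change was 0.23 as deposited and 0.37 before shrinkage. The protease gene prss60.2 averaged 363 with TCPM and 254 with DMSO (1.43-fold higher, 1.24 to 1.65), and the phospholipase gene pla2g1b 1494 with TCPM and 1128 with DMSO (1.32-fold higher). Trypsin, prss1, averaged 38987 with TCPM and 30075 with DMSO and did not pass, with an interval of the ratio of 1.03 to 1.63 and a CV of 16.6%. The elastase gene ela2l, at 7956 with TCPM and 6817 with DMSO, had a CV of 32.7%. Of 28 islet genes 0 were called: insulin, ins, averaged 268 with TCPM and 258 with DMSO and glucagon, gcga, 213 with TCPM and 181 with DMSO. The pancreas factor genes pdx1 (65.9 with TCPM and 51.7 with DMSO) and ptf1a (52.2 with TCPM and 57.6 with DMSO) did not pass either, and the intervals of the ratio of TCPM to DMSO, 0.95 to 1.7 for pdx1 and 0.68 to 1.21 for ptf1a, leave room for sizeable changes.

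Several intestine genes rose. Of 42 genes 9 rose and 0 fell, with 21 higher and 1 lower before adjustment and a median log2 fold change of 0.16. The fatty acid carrier gene fabp2 averaged 14224 with TCPM and 10448 with DMSO, 1.36-fold higher (1.23 to 1.5; adjusted p = 2.01e-07 by the authors' deposited table). The retinol carrier gene rbp2a averaged 4527 with TCPM and 3305 with DMSO (1.37-fold higher), the glucose transporter gene slc5a1 870.5 with TCPM and 619 with DMSO (1.41-fold higher) and the apolipoprotein gene apoa4b.2 5802 with TCPM and 4151 with DMSO (1.4-fold higher). The chitinase gene chia.2 averaged 20771 with TCPM and 16074 with DMSO (1.29-fold higher). Among the markers of this tissue fabp2 and vil1 rose, and apoa4b.1 did not pass (deposited log2 fold change 0.04). Of 49 liver plasma protein genes 1 fell, hamp, which encodes the iron hormone hepcidin (184 with TCPM and 268 with DMSO, 1.46-fold lower), and the median was -0.03. Liver markers fabp10a, tfa and fgb had log2 fold changes of 0.00, 0.01 and -0.07.

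Few metabolic genes outside these organs were called. Of 29 genes of fatty acid synthesis, elongation and desaturation 1 rose and 1 fell (3.45% each), with a median log2 fold change of 0.01. The 1 that fell was the elongase gene elovl7b, averaging 108 with TCPM and 289 with DMSO, 2.69-fold lower (2.23 to 3.23). A second elongase gene, elovl6l, is outside that list and was named after its values were seen. It was called lower as well, averaging 198 with TCPM and 303 with DMSO, 1.53-fold lower (1.25 to 1.87). In the list of fatty acid oxidation and Ppar targets 2 of 52 genes rose and 0 fell. They were the uncoupling protein gene ucp3 and the pyruvate dehydrogenase kinase gene pdk2b, which averaged 1018 and 2929 with TCPM against 654 and 1982 with DMSO, 1.56-fold and 1.48-fold higher. In the cholesterol list 2 of 38 genes rose (5.26%), the sterol oxidase gene msmo1 (387 with TCPM and 265 with DMSO, 1.46-fold higher) and the receptor gene ldlra (848 with TCPM and 696 with DMSO, 1.22-fold higher). The lipid synthesis regulator gene srebf1 was 1.16-fold higher. In the glucose list of 60 genes 1 rose, the glycolysis gene pkma (1.16-fold higher), and 1 fell, the glucose-6-phosphatase gene g6pca.2 (1.22-fold lower). Of 45 genes of amino acid catabolism 1 rose, gldc (1.2-fold higher).

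Few genes of the remaining tissues were called. Of 54 lens genes 0 were called, yet 49 of 55 were positive (median 0.12), with 14 higher and 0 lower before adjustment. The lens gene crybb1l1 averaged 28255 with TCPM and 24613 with DMSO. Of 57 neuron genes 0 were called and 48 were positive (median 0.05). Of 25 glial genes apoea rose (1.31-fold higher) and the water channel gene aqp4 fell, each 4% of the list (122 with TCPM and 210.1 with DMSO, 1.73-fold lower, 1.35 to 2.21). The embryonic globin gene hbae1.1 averaged 167 with TCPM and 97.9 with DMSO (1.7-fold higher, 1.25 to 2.31, CV 20.3%), the other called marker beside fabp2, vil1, tyr, dct and pmela. Of 43 keratin and epidermis genes 4 rose, krt1-19d, krt92, evplb and dspa, and 1 fell, cldnb. In the skeletal muscle sarcomere and leukocyte lists of 53 and 34 genes none was called. Outside the sarcomere list, the muscle regulator genes myod1, myf6 and six1b were called lower, by 1.41-fold, 1.28-fold and 1.25-fold. They were named after their values were seen, and no list of such genes was made. Of 20 heart genes 1 rose, that of myoglobin, mb (1.35-fold higher). Of the estrogen and vitellogenin list vtg1, vtg2 and cyp19a1b had base means below 10 and are not described.

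Most called genes, 275, were in no list, and the genes named here were chosen after their values were seen except where stated. The arrestin-domain genes arrdc3b, arrdc2 and arrdc3a were 1.77-fold (1.53 to 2.04), 1.37-fold and 1.35-fold higher. The vitamin D activating enzyme gene cyp27b1 averaged 538 with TCPM and 257 with DMSO (2.09-fold higher, 1.69 to 2.59). The mitochondrial membrane protein gene tspo averaged 616 with TCPM and 434 with DMSO (1.42-fold higher). The biliverdin reductase gene blvra was 1.42-fold higher and the heme oxygenase gene hmox2a 1.31-fold higher. The polyamine enzymes odc1 and amd1 were 1.27-fold and 1.15-fold higher. The carotenoid cleaving genes bco1 and bco1l, next to each other among the genes placed on their chromosome, were 1.22-fold and 1.5-fold higher. By the rule for named genes, the uncharacterised si:ch211-161h7.5 averaged 1830 with TCPM and 647 with DMSO (2.83-fold higher), si:dkey-104n9.1 164 with TCPM and 64.6 with DMSO (2.53-fold higher), and CR926130.1 319 with TCPM and 159.7 with DMSO. By the same rule the WD repeat gene wdr76 averaged 209.6 with TCPM and 96.4 with DMSO (2.17-fold higher). The uncharacterised si:dkey-242g16.2 averaged 284 with TCPM and 703 with DMSO (2.48-fold lower).

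Neighbours along the chromosomes were counted as well. In the gene order of the RefSeq annotation of GRCz12tu, 382 called genes could be placed, of which 18 (4.71%) lay next to another called gene, against 3.67% of other genes. They form 9 pairs, of which 7 moved the same way, including bco1 and bco1l, chia.1 and chia.2, and cry5 and dcps. Among genes with an annotated type, 375 of 20217 protein coding genes and 4 of 229 long noncoding RNAs were called, against 1.89% of all genes tested. These counts are not read as a result about the type of gene. For 2 genes the table holds no p, which DESeq2 leaves out where 1 library stands far from the rest: LOC101885394, with a CV of 73.9%, and BX537263.1, with a CV of 96.8%.

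Values for TCPMOH stand beside those for TCPM in the table made against the same DMSO libraries, so the fold changes of both compounds share those controls and are not independent. Means with TCPMOH were put on the scale of the TCPM table. Transcripts of per2 averaged 5044 with TCPM, 6231 with TCPMOH and 1709 with DMSO, those of cry5 867 with TCPM, 1302 with TCPMOH and 341 with DMSO, and those of xpc 843 with TCPM, 1189 with TCPMOH and 401 with DMSO. Transcripts of fosab averaged 299 with TCPM, 202 with TCPMOH and 1260 with DMSO, and those of npas4a 401 with TCPM, 237 with TCPMOH and 1483 with DMSO. In these 5 genes the TCPMOH mean lay farther from the DMSO mean than the TCPM mean did. The visual cycle gene rdh5 averaged 804 with TCPM, 927 with TCPMOH and 289 with DMSO, and the melanin gene dct 1700 with TCPM, 1891 with TCPMOH and 831 with DMSO. List medians of the log2 fold change over DMSO before shrinkage, since the tables were shrunken by different priors, were 0.61 with TCPM and 0.92 with TCPMOH for light-induced genes, 0.42 with TCPM and 0.35 with TCPMOH for melanin genes, and 0.31 with TCPM and 0.16 with TCPMOH for mitochondrially encoded transcripts. In the table for TCPMOH none of those 12 mitochondrial transcripts was called, though each had a positive fold change. Their deposited standard errors were larger with TCPMOH than with TCPM, as for mt-co1 (0.0926 and 0.0568 log2 units). In the plot of fold changes the filled points for cyp1a, cyp1b1 and foxq1a lie at 2.23, 1.74 and 1.61, and the open points for TCPMOH at 1.22, 1.15 and 0.94. No test of the difference between the compounds is given here.

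**Figure D4:**
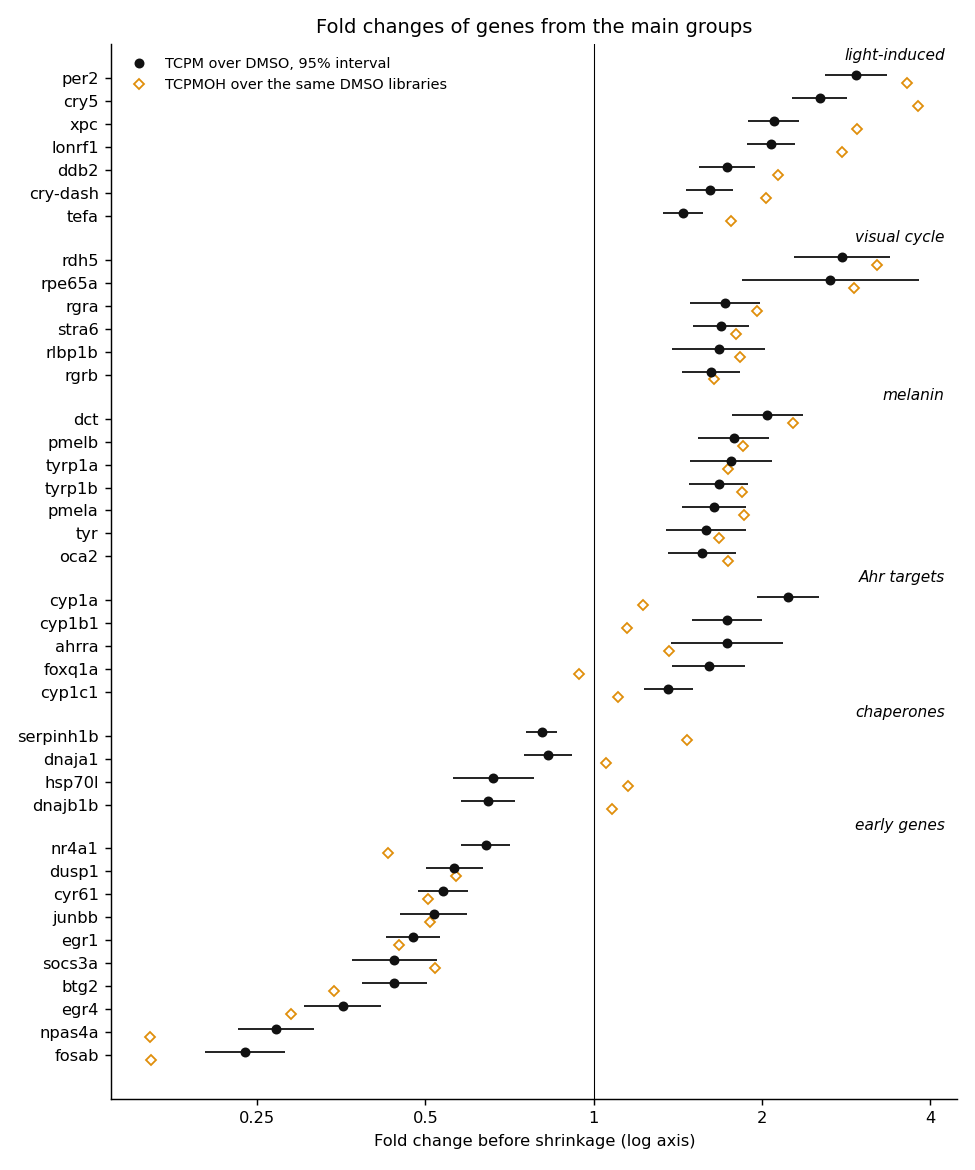
Fold change before shrinkage, on a log axis, of genes from the main groups. Filled points are TCPM over DMSO with 95% intervals, and open points are TCPMOH over the same DMSO libraries, whose intervals are not drawn. The chaperone genes drawn were all called lower with TCPM, so they lie below 1 there. With TCPMOH they lie above 1, where dnajb1b, hsp70l and dnaja1 were not called.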

How the data were processed

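Whole larvae were profiled by stranded mRNA sequencing with paired 100 nt reads, 25 M stated, per the labels' protocols. Per the submitters' processing notes the tools of the authors were featureCounts, STAR, cutadapt, FastQC and DESeq2, without versions, and the gene models were of version 4.3.2, per the file headers. The sources used here do not give the genome build, and no coordinates or sequences are reported. The table deposited by the authors gives the mean signal (base mean), the log2 fold change with its standard error in log2 units, the Wald score, the p-value and the adjusted p-value of each gene. The deposited ratio is DMSO over compound, as genes read in the libraries shared by both tables showed, and signs were turned. The deposited table holds 0 columns of per-sample values left unused.

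The deposited fold changes are shrunken toward 0 by a normal prior of SD 0.216 (log2). This was undone per gene. The standard error allows 2 solutions, and the one with the smaller error before shrinkage was taken by default. It was replaced where its dispersion fell below 0, beyond a small tolerance, or where another solution brought the DMSO means of the tables much closer. The other solution was taken for 27 called genes. The DMSO means then agreed within 0.02 log2 units for 417 of 419 called genes, which partly follows from this choice. The steps were tested on counts simulated with the recovered dispersions and fitted with a prior of this kind. That test cannot show that the authors' fit used this prior. Calls are the authors' adjusted p under 0.05, and 22223 genes, of base mean 13.8 or more, have one. Folds are before shrinkage, with 95% Wald intervals. Count models could not be fitted, since no counts per library were analysed here. Means with TCPMOH were scaled by the median ratio of the DMSO means.

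Named genes were the 12 called genes highest and the 12 lowest, up to 6 called members of each list by p, the member with the highest base mean where fewer than 2 passed, and fixed anchors. Others are tissue markers, called neighbours on a chromosome or genes without a p, or are said to be named after their values were seen. The members, lists and rules were chosen with earlier results of these data known. Python 3.11.15, numpy 2.4.6, pandas 2.3.3, scipy 1.17.1 and matplotlib 3.10.9 were used.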

Additional observations from a re-analysis of the deposited data

How the results depend on the processing

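At an adjusted p under 0.01, 262 genes were called, 184 higher and 78 lower. With the deposited, shrunken fold changes 51 called genes reached 1.5-fold in place of 137, and 131 did with the same solution of the prior for every gene, an alternative chosen after seeing the data. Other settings left the count within 1.5 times of 419: 410 with adjustment over every gene of base mean 10 or more, 431 over those of 50 or more, 374 over every gene with a p, 410 with fold changes centred on the median, and 333 with Wald statistics divided by their robust SD of 1.06. All 333 were among the 419, since dividing by 1.06 can only remove calls. The named genes that lost their call numbered 41 at an adjusted p under 0.01, 22 with the robust SD, 10 over every gene with a p, 2 with centring and 1 over base means of 10 or more. Counts of called list members moved by over 1.5 times in 12 of 46 lists at an adjusted p under 0.01, in 7 with the robust SD, in 5 over every gene with a p, in 1 with centring and in 1 over base means of 50 or more. All of these lists had 5 or fewer called members. Before shrinkage the list medians of the exocrine pancreas and melanin genes were 0.37 and 0.42, against 0.23 and 0.31 as deposited. No called gene named here changed sign under these settings. Only the centring could have changed a sign, and it moved log2 fold changes by 0.0018, so this was largely fixed in advance. The Wald statistic before shrinkage equals the deposited one by construction. Leaving out single libraries was not run, since values per library were not analysed here. No paired analysis was possible because the labels give no replicate number shared by the groups, the replicate of each pool is not given and no values per library were analysed, so the p-values take no account of a replicate that pools may share. Depth limits genes of low level most: at base means of 10 to 30 the median smallest fold that could be called was 2.38.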
